A study of Mus musculus with 6 samples.

Results

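The Elovl and Scd genes of mouse hepatocytes, which encode the fatty acid elongases ELOVL and the stearoyl-CoA desaturases SCD, were examined for how their RNA levels stood with and without ectopic Sox4. The 9 members, Elovl1 to Elovl7, Scd1 and Scd2, were taken by symbol from a table of 53599 gene symbols. They were chosen with their measured differences between the groups known, that is, selected on this contrast, so every difference between the groups given for them is a description and carries no test.

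Elongases lengthen fatty acyl-CoA by a 2-carbon unit in the endoplasmic reticulum. They catalyse the first and slowest step of a cycle that is completed by a ketoacyl reductase, a dehydratase and an enoyl reductase. Stearoyl-CoA desaturases put the first double bond into saturated chains and so make oleate and palmitoleate, taking electrons from cytochrome b5 and its reductase. In liver some of these enzymes act after fatty acid synthase, and products of elongases and desaturases are built into triglycerides, phospholipids and sphingolipids.

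RNA-seq had been performed on hepatocytes from mice given an adeno-associated virus (AAV8) by injection, harvested at day 4. Sox4 mice received a vector with HA-tagged Sox4 joined through P2A to Cre recombinase (AAV8-TBG-HA-Sox4-P2A-Cre), and control mice received AAV8-TBG-Cre, called empty vector (EV), so both groups expressed Cre. The TBG promoter of both vectors acts in hepatocytes. There were 3 libraries in each group, from separate animals by the study's methods. The methods name male mice a few weeks old with a Cre-dependent Cas9-EGFP allele for the gene delivery experiments, while the labels give neither strain, age, time of day nor feeding state and list the genotype as WT for EV. Cells were released with liberase and enriched on Percoll with no sort for infected cells, so a bulk library cannot tell fewer cells with an RNA from less of that RNA in each cell.

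Libraries held 15090629 to 16964860 counts, with 17025 to 17525 genes counted per EV library and 19049 to 19515 per Sox4 library. The delivered gene, Sox4, had 2, 0 and 3 counts in EV and 21697, 15097 and 11816 counts in Sox4 libraries 1 to 3, which matches the labels. Levels are given in CPM (counts per 1e06 after scaling by trimmed mean of M-values, TMM). A total of 12691 genes passed the count filter and were compared by the edgeR quasi-likelihood test, and 6990 (55.1%) had an adjusted p under 0.05. Over those genes the log2 fold change had a median of 0.04 with this scaling and of 0.51 with library size alone. Hepatocyte markers (Alb, Apoa1, Ttr, Serpina1a, Cps1, Hnf4a) summed to between 109906 and 132227 CPM in EV and between 78941 and 90412 CPM in Sox4 libraries, so the labelled cell type was present in both groups. Most of each sum was Alb (means of 99190.5 CPM in EV and 66524.6 CPM in Sox4 libraries). Of these 6 markers 4 were called lower with Sox4 and 0 higher, with Apoa1 at a log2 fold change of -1.81.

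RefSeq promoter sequences (GRCm38.p6) were at hand for 6 of the 9 members, Elovl1, Elovl2, Elovl4, Elovl5, Elovl6 and Elovl7, and the 250 bases before each start were searched. Those of 2 genes that were higher with Sox4 (Elovl2, Elovl7), of 1 that was lower (Elovl6) and of 1 whose libraries disagreed (Elovl5) are shown, so that the sequence upstream of members with opposite patterns can be set side by side. Capitals mark letters found in the search. Elovl2 lies at chr13:41220404-41220653 on the minus strand, Elovl7 at chr13:108214154-108214403 on the plus strand, Elovl6 at chr3:129532136-129532385 on the plus strand and Elovl5 at chr9:77917115-77917364 on the plus strand.
Elovl2: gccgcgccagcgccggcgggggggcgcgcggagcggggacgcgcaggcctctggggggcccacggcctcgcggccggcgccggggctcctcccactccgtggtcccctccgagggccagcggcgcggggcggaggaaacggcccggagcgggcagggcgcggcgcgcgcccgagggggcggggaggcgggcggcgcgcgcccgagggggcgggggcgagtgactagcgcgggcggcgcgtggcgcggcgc
Elovl7: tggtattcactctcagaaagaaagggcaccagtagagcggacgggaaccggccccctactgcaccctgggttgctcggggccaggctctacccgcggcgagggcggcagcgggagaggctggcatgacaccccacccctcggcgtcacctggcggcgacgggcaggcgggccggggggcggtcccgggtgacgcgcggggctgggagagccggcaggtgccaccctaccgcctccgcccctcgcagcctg
Elovl6: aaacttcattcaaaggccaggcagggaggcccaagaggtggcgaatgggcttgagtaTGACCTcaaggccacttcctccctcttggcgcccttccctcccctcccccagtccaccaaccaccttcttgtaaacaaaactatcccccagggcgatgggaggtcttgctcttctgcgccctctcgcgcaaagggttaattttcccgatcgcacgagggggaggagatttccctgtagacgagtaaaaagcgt
Elovl5: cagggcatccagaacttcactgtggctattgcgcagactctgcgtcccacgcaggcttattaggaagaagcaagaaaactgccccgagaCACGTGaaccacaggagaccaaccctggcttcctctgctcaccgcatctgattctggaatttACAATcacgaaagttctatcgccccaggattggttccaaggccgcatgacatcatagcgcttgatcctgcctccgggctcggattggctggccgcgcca

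The search covered both strands for ACAAAG and ACAAT (letters bound by SOX factors), AGGTCA (a single nuclear receptor site), CACGTG (the E-box), TCACNCCAC (a sterol regulatory element) and TTATGNAA (the D-box of clock output factors). The Elovl2 and Elovl7 promoters held none of the letters searched. They were instead rich in G and C, at 87.2% for Elovl2 and 73.6% for Elovl7, where the median of 32851 promoters was 52.4%. The window of Elovl1, which was lower with Sox4, and that of Elovl4 held none of these letters either. Those windows had 72% (Elovl1) and 69.6% (Elovl4) G and C. In the Elovl6 promoter AGGTCA was read on the reverse strand (TGACCT) at position -193, in letters held by 14.0% of all promoters. The Elovl5 promoter held CACGTG at position -161, found in 6.02% of promoters, and ACAAT at position -99, found in 27.7%. ACAAAG was in 16.5% of all promoters, TCACNCCAC in 1.05% and TTATGNAA in 3.07%, and in none of the 6 members' windows. A match is a description of letters and was not tied to binding here.

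Of the 9 members, 8 passed the count filter and Elovl4 did not. Elovl7 passed through its Sox4 libraries. By the test across all genes 3 members were called higher (Elovl2, Elovl7, Scd2), where 29.0% of all tested genes were, and 4 were called lower (Elovl1, Elovl3, Elovl6, Scd1), where 26.0% were. The groups did not overlap for 7 of the 8, against 63.0% of all tested genes. These counts come from the contrast that chose the members, and nothing is read from them. The plot of the members by library shows each value.

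**Figure D1:**
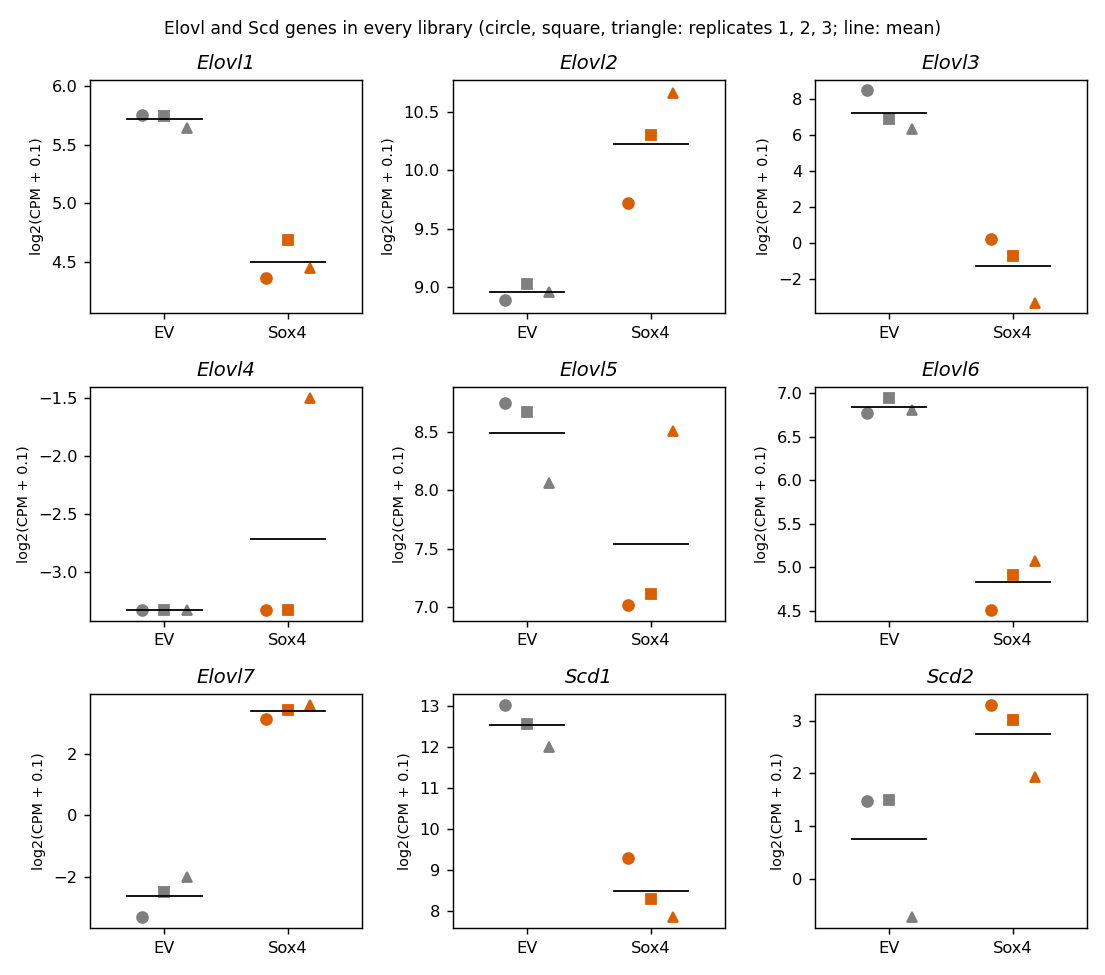
Level of each Elovl and Scd gene in every library, as log2(CPM + 0.1) on separate vertical axes, for EV (grey) and Sox4 (orange); circles, squares and triangles are replicates 1, 2 and 3 and lines are group means. Elovl1, Elovl3, Elovl6 and Scd1 lie lower in all 3 Sox4 libraries, Elovl2, Elovl7 and Scd2 lie higher, and the groups overlap for Elovl5.

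Scd1, the main stearoyl-CoA desaturase of liver, was the most abundant member in EV. Its level was 8329, 5994 and 4083 CPM in EV libraries 1 to 3 and 626, 317 and 231 CPM in Sox4 libraries 1 to 3. Every Sox4 library was below every EV library, and the group means differed 15.7-fold (log2 fold change -3.97, SE 0.52, n = 3 and 3). Scd1 alone made up 0.716, 0.503 and 0.346% of all counts in the EV libraries, where it was the gene with the 10th, 20th and 34th highest count. In the Sox4 libraries it made up 0.0736, 0.0372 and 0.0272%, at ranks 149, 304 and 461.

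Scd2, the isoform best known from brain and from developing tissue, was at 2.697, 2.734 and 0.508 CPM in EV and 9.72, 7.97 and 3.70 CPM in Sox4 libraries (log2 fold change 1.85, SE 0.84). These levels rest on 7 to 36 counts in EV and 73 to 194 counts in Sox4 libraries. Its call was lost without Sox4 replicate 1 (1.56) or replicate 2 (1.77). Of Scd2's annotated 50-base words, 2.66% also occur in Scd1, and Scd1 had 56224 to 108090 counts in EV, so all of the few Scd2 counts there could depend on how shared reads were assigned. Scd2 was the higher in the group in which Scd1 was the lower. The related Scd3 had 6, 7 and 1 counts in EV and 1, 0 and 1 in Sox4 libraries, and Scd4 had 1, 3 and 0 in EV and 0 in each Sox4 library, both below the filter. Per kilobase of exon, Scd1 exceeded Scd2 3449-, 2449- and 8971-fold in the EV libraries and 71.9-, 44.4- and 69.8-fold in the Sox4 libraries.

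Elovl3 elongates saturated and monounsaturated chains and is known in mouse liver for daily rhythm and a male bias. It had 4668, 1564 and 1110 counts in EV libraries 1 to 3 (360, 119 and 80.6 CPM). In the Sox4 libraries 1 to 3 it had 21, 10 and 0 counts (1.05, 0.511 and 0 CPM). The fitted log2 fold change of -8.46 (SE 1.17) ranked 1 among decreases of the 12691 genes tested. It was -7.57 without EV replicate 1 and -9.48 without Sox4 replicate 1. The antisense neighbour Pitx3 had 39, 18 and 0 counts in EV and 0 in each Sox4 library, few beside those of Elovl3.

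Elovl6, which extends palmitate to stearate and so supplies the chain that SCD1 desaturates, was at 109, 123 and 112 CPM in EV. In the Sox4 libraries it was at 22.7, 30.0 and 33.5 CPM, below each EV library (log2 fold change -1.999, SE 0.17). Elovl1, which makes very long saturated and monounsaturated chains for sphingolipids, was at 53.9, 53.7 and 50.04 CPM in EV and 20.4, 25.6 and 21.7 CPM in Sox4 libraries. Its difference was -1.22 on the log2 scale (SE 0.10) and, among the tested members, its libraries were the most even within each group. Elovl1 overlaps Cdc20 on the opposite strand, which had 3 to 6 counts in EV and 93 to 233 in Sox4 libraries, while Elovl1 itself had 407 to 707. Of Elovl1's annotated 50-base words, 0.139% also occur in Cdc20. Since strand handling is not known, reads of Cdc20 from that stretch could be part of Elovl1's counts in the Sox4 libraries.

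Elovl7, a further elongase of saturated and monounsaturated chains, was at or under 3 counts in each EV library, with 0, 1 and 2 counts. The Sox4 libraries held 172, 209 and 235 counts (8.62, 10.7 and 11.9 CPM). The mean of the Sox4 libraries was at least 46.1-fold higher than the level of 3 counts per library in EV.

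Elovl2, Elovl4 and Elovl5 act on polyunsaturated chains. Elovl2, which is needed for the longest steps towards docosahexaenoic acid, was at 474, 521 and 496 CPM in EV and 840, 1262 and 1616 CPM in Sox4 libraries (log2 fold change 1.32, SE 0.28). All Sox4 libraries were above all EV libraries. Among the Sox4 libraries the highest level of Elovl2 was in replicate 3, where Sox4 itself had the fewest counts.

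Elovl5, which elongates the shorter polyunsaturated chains, was at 431, 408 and 267 CPM in EV and 129, 138 and 363 CPM in Sox4 libraries. The groups overlapped, because Sox4 replicate 3 lay among the EV libraries, and the log2 fold change was -0.81 (SE 0.53). Without Sox4 replicate 3 the value was -1.46 and was called by the test across all genes. Elovl4, an elongase of very long chains in retina, brain and skin, had 0 counts in 5 libraries and 5 counts in Sox4 replicate 3. A count of 0 allows up to 0.231 CPM at these depths, so its absence cannot be stated below that level.

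Levels of different members were compared per kilobase of annotated exon. In EV the order was led by Scd1 at 1254 ± 435 CPM per kb (SD, n = 3). Elovl2 (125 ± 6.02), Elovl5 (105 ± 25.2) and Elovl3 (94.4 ± 76.6) followed with overlapping ranges. Elovl1 (19.3) and Elovl6 (17.9) came next, also overlapping, and Scd2 (0.362), Elovl7 (0.0184) and Elovl4 (0) were at the bottom. In the Sox4 libraries Elovl2 was first at 312 ± 98.0 CPM per kb, above the whole range of Scd1 (79.9 ± 42.4), which overlapped that of Elovl5 (59.7 ± 37.6). Elovl1 (8.28), Elovl6 (4.47), Elovl7 (2.59) and Scd2 (1.31) followed with separate ranges, and Elovl3 (0.264) ended beside Elovl4 (0.0279).

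A share of the members' summed level within a library does not depend on scaling between libraries. Scd1 was 78.7, 77.9 and 75.0% of the per-kilobase sum of the 9 genes in EV libraries 1 to 3. In Sox4 libraries 1 to 3 it was 32.6, 14.7 and 8.22%. Elovl2 was 5.52, 8.36 and 11.2% of that sum in EV and 54.0, 72.2 and 70.9% in Sox4 libraries. The leading transcript was thus a desaturase in every EV library and an elongase of polyunsaturated chains in every Sox4 library, as the plot of shares shows.

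**Figure D2:**
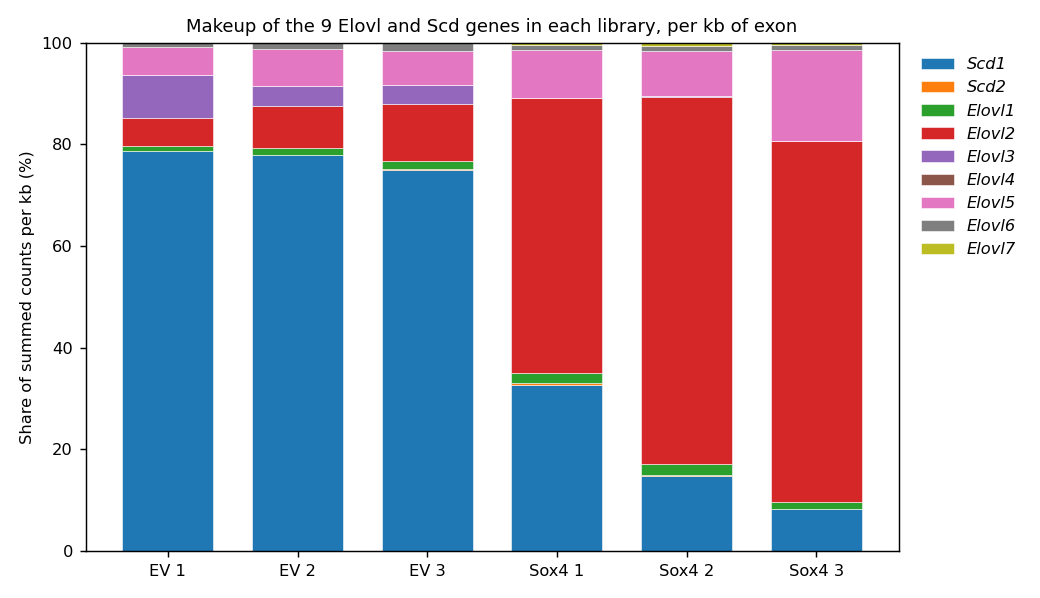
Share of each of the 9 genes in their summed counts per kb of exon (%), as 1 stacked bar for each library. Scd1 fills 75.0 to 78.7% of the EV bars and 8.22 to 32.6% of the Sox4 bars, while Elovl2 fills 5.52 to 11.2% and 54.0 to 72.2%.

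Among the 7 elongases alone, Elovl2 made up 36.3 ± 9.68% in EV and 81.0 ± 3.82% in Sox4 libraries (SD, n = 3). Elovl3 made up 39.5, 17.4 and 14.7% in EV and at most 0.203% in a Sox4 library. Elovl3 exceeded Elovl6 10.7-, 3.13- and 2.35-fold per kilobase in EV, whereas the ratio was 0.151, 0.0554 and 0 in Sox4 libraries. Elovl2 over Elovl5 was 0.977, 1.14 and 1.65 in EV and 5.76, 8.11 and 3.96 in Sox4 libraries. The ratio of Elovl2 to Elovl5 therefore did not overlap between the groups, although the level of Elovl5 did.

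The spread among the 3 EV libraries uses no difference between the groups and was set beside that of all tested genes. Elovl3 had an SD of 1.12 on the log2 scale, above that of 98.2% of tested genes, which is a 4.46-fold range between the highest and lowest EV library. Without EV replicate 1 the SD was 0.395. Scd1 had an SD of 0.51 (87.0% of genes lower) and Elovl5 of 0.38 (78.5%). Elovl6, Elovl2 and Elovl1 were even, with SDs above those of 21.7, 13.3 and 10.4% of genes. Scd2 also varied, with an SD of 1.25 on 7 to 36 counts.

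Because Elovl3 is known for daily rhythm, 14 clock and clock output genes were read in the same libraries, where EV replicate 1 was highest in 5, lowest in 9 and between the others in none. Arntl, the partner of CLOCK, was at 42.0, 23.8 and 11.7 CPM in EV libraries 1 to 3, and Npas2 was at 11.1, 3.42 and 0.726 CPM. Dbp, a factor that binds the D-box, was at 8.86, 27.0 and 48.7 CPM, and Per1, a repressor of the clock, at 7.24, 23.3 and 25.4 CPM. Like Elovl3, Arntl and Npas2 were highest in replicate 1 and lowest in replicate 3, while Dbp and Per1 had the opposite order. These 4 and Ciart (0.771, 2.81 and 3.63 CPM) had an SD above that of 95% of tested genes, and were singled out after their values were seen. The part of sampling time in the spread of Elovl3 was not tested.

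**Figure D3:**
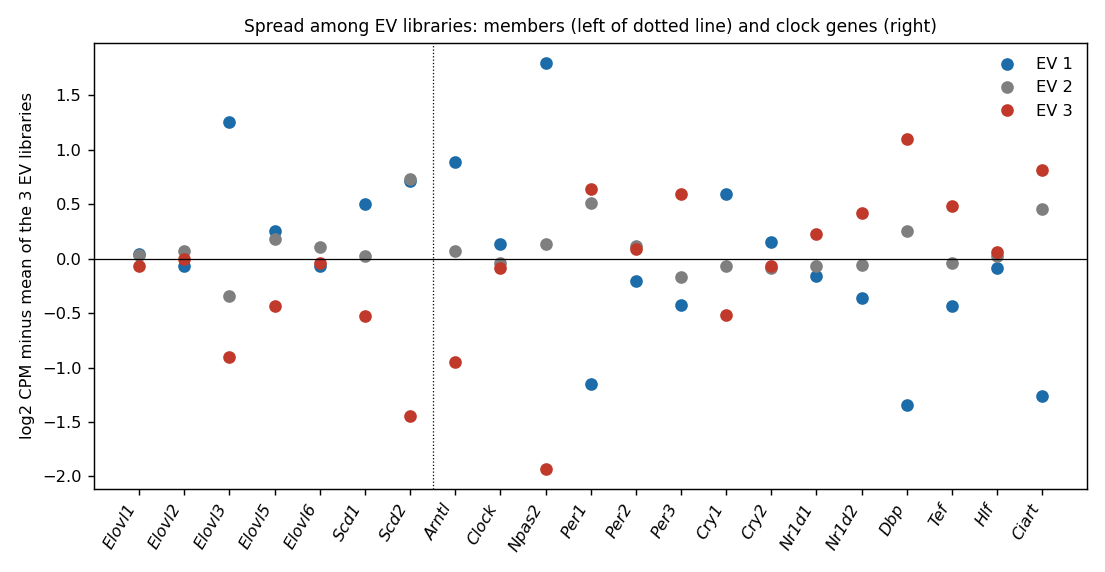
Level in each EV library minus the mean of the 3 EV libraries, in log2 CPM, for 7 of the members (left of the dotted line) and 14 clock genes (right). Elovl3, Arntl and Npas2 lie highest in EV 1 (blue), where Dbp, Per1 and Ciart lie lowest, and Elovl1, Elovl2 and Elovl6 lie near 0 in every library.

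Between the groups, 4 of the 14 clock genes were called, all lower with Sox4, where 26.0% of all tested genes were called lower. The list's median log2 fold change was -0.61. The 4 genes were Clock (-0.47, adjusted p = 0.0136), Per2 (-0.91, adjusted p = 0.00701), Nr1d1 (-0.66, adjusted p = 0.0104) and Nr1d2 (-0.81, adjusted p = 0.0129). With library size alone none of these 4 was called (Clock 0.00081, Per2 -0.44, Nr1d1 -0.19, Nr1d2 -0.34), and Per1 (1.31) and Hlf (0.56) were called higher instead. Nr1d2 also lost its call without Sox4 replicate 1 (-0.69). Without EV replicate 1, the count was 7.

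Elovl3 is also known as male-biased, and a list of such liver genes was read beside it. Of 10 male-biased genes 9 fell and 1 was not called, with a median log2 fold change of -3.40. Of all tested genes 29.0% were called higher and 26.0% lower, which applies beside every list count below. Hsd3b5, a steroid dehydrogenase, was between 219.5 and 370 CPM in EV, against 2.16, 1.07 and 0 CPM with Sox4 (log2 fold change -7.96, SE 1.31, adjusted p = 4.99e-04). Slco1a1, an organic anion transporter, fell by 5.21 on the log2 scale (adjusted p = 3.69e-07), and Nudt7, Cyp2d9, Cyp4a12a and Cyp4a12b also fell. The calls of Cyp4a12a and Cyp4a12b were lost without Sox4 replicate 1 (-5.83 and -4.49). They were also lost with the replicate number as a block (-6.22 and -4.59). Of 10 female-biased genes only 4 could be tested. Acot3 rose (log2 fold change 5.07, adjusted p = 5.43e-04), and Cyp2a4 rose (4.07, adjusted p = 0.0371) with a call that was lost with no count filter (4.11) and without EV replicate 3 (3.93) or any 1 of the Sox4 libraries (3.87 to 4.20). With the replicate number as a block, 5 of the male-biased and 1 of the female-biased genes were called.

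Of the 7 other enzymes of the elongation cycle, 5 were tested, of which 2 rose and 3 were not called. Their median log2 fold change was -0.04, and 29.0% of all tested genes were called higher. Hsd17b12, the ketoacyl reductase, lay between 196 and 204 CPM in EV and between 166 and 217 CPM with Sox4 (log2 fold change -0.04, SE 0.12, adjusted p = 0.811). Tecr, the enoyl reductase, was at 178 to 223 CPM in EV and 156 to 202 CPM with Sox4 (-0.12, SE 0.15, adjusted p = 0.500). With library size alone both values turned positive, and Hsd17b12 was called higher (0.43, adjusted p = 0.0158) while Tecr was not (0.35, adjusted p = 0.0550). The dehydratases Hacd3 (0.49, SE 0.11, adjusted p = 0.0108) and Hacd2 (0.32, SE 0.12, adjusted p = 0.0455) rose. The call of Hacd3 was lost without EV replicate 2 (0.45), and that of Hacd2 without any 1 library other than Sox4 replicate 1 (0.23 to 0.36).

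Among the other desaturases and the electron donors of desaturation, 8 of 11 were tested, of which 6 fell and 1 rose (median log2 fold change -0.73). The listed genes of the electron chain all fell. Cyb5r3, the cytochrome b5 reductase, was at 636, 551 and 509 CPM in EV and 238, 189 and 144 CPM in Sox4 libraries (log2 fold change -1.57, SE 0.23, adjusted p = 9.96e-05). Cyb5a, the microsomal cytochrome b5, fell by 0.86 (SE 0.15, adjusted p = 0.00115) and Cyb5b, the mitochondrial form, by 1.29 (SE 0.24, adjusted p = 3.94e-04).

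The front-end desaturases, which alternate with Elovl5 and Elovl2 in making polyunsaturated chains, did not share 1 pattern. Fads1 fell by 0.61 (SE 0.08, adjusted p = 0.00292), though not with library size alone (-0.14). Fads2 was at 491, 460 and 454 CPM in EV and 329, 526 and 703 CPM in Sox4 libraries, and its log2 fold change, 0.15 (SE 0.32, adjusted p = 0.617), was -0.13 without Sox4 replicate 3. It was called higher without Sox4 replicate 1 (0.39) and with library size alone (0.62). Like Elovl2 and Elovl5, Fads2 was highest in replicate 3 among the Sox4 libraries. Fads6 fell (-0.96), and Fads3, which desaturates sphingoid bases, rose by 1.68 (SE 0.29, adjusted p = 2.74e-04). Levels of Fads3 were between 3.95 and 5.86 CPM in EV and between 12.5 and 21.4 CPM in Sox4 libraries.

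The genes listed for synthesis of palmitate, the substrate of Elovl6, fell as a group. The list also holds proteins that regulate this synthesis and a carboxylase of mitochondria. All 9 fell, with a median log2 fold change of -2.06, and with library size alone 7 of them were called. Fasn, the fatty acid synthase, was at 1268, 806 and 704 CPM in EV and 201, 161 and 126 CPM in Sox4 libraries (log2 fold change -2.51, SE 0.32, adjusted p = 5.15e-05). Thrsp, a lipogenic protein, fell by 5.73 (adjusted p = 2.78e-06), as did Acacb, an acetyl-CoA carboxylase of mitochondria (-4.44, adjusted p = 1.98e-05), and Acss2, which makes acetyl-CoA from acetate (-3.93, adjusted p = 9.27e-06). Acaca, the cytosolic carboxylase, fell by 0.95 (adjusted p = 2.08e-04), and Mid1ip1, which activates it, fell by 2.06 (adjusted p = 8.86e-04). The citrate carrier Slc25a1 fell by 1.28 (adjusted p = 3.76e-04). As for Scd1 and Elovl3, the level was highest in EV replicate 1 among the EV libraries for all 9 of these genes.

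Of 13 regulators of lipogenesis 8 fell, 1 rose and 4 were not called (median log2 fold change -0.91). Insig1, which holds the SREBP complex in the endoplasmic reticulum and is itself an SREBP target, was at 1037, 731 and 655 CPM in EV and 72.5, 89.2 and 27.9 CPM in Sox4 libraries (log2 fold change -3.68, SE 0.55, adjusted p = 5.18e-04). Srebf1, the transcription factor that drives Scd1 and Fasn in response to insulin, was at 601, 337 and 240 CPM in EV and 172, 84.8 and 117 CPM in Sox4 libraries (-1.66, SE 0.49, adjusted p = 0.0106), a call lost with no count filter (-1.62, adjusted p = 0.0820). Mlxipl, which encodes the carbohydrate-responsive factor ChREBP, fell by 1.24 (SE 0.18, adjusted p = 1.44e-04), as did Insig2 (-1.65), Rxra (-1.19) and Scap, the escort of SREBP (-1.19). Mbtps2, a protease that releases SREBP and the 1 gene that rose, ranged from 11.1 to 14.7 CPM in EV and from 22.9 to 34.5 CPM with Sox4 (1.09, adjusted p = 7.36e-04).

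The enzymes that activate acyl chains and place them in glycerolipids also were mostly lower. Of 12 tested, 8 fell, 1 rose and 3 were not called (median log2 fold change -0.97). Those that fell included the acyl-CoA synthetases Acsl5 (-1.65, adjusted p = 1.59e-05) and Acsl3 (-1.20, adjusted p = 0.00110), the acyltransferase Agpat2 (-1.42, adjusted p = 6.21e-04), Lpcat3, which puts polyunsaturated chains into phospholipids (-1.16, adjusted p = 2.13e-04), and Dgat2, which makes triglyceride (-1.05, adjusted p = 8.83e-05). The other triglyceride synthase, Dgat1, was the 1 gene that rose (0.32, adjusted p = 0.0340). Lpin1 was at 128, 506 and 582 CPM in EV and between 93.2 and 102 CPM with Sox4 (-2.06, adjusted p = 0.0201). Its call was lost with no count filter (-2.02) and with the replicate number as a block (-1.82). It was also lost without any 1 library other than EV replicate 1 (-2.10 to -1.72).

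The listed sphingolipid genes, not all of which use the very long chains made by Elovl1, were more often higher than lower. Of 10 listed 7 were tested, of which 4 rose, 1 fell and 2 were not called (median log2 fold change 1.10). Cers6, a ceramide synthase that prefers long chains, was at 12.7, 10.1 and 5.59 CPM in EV and 46.7, 52.0 and 55.1 CPM in Sox4 libraries (2.44, SE 0.35, adjusted p = 6.06e-05). Cers2, the ceramide synthase that prefers very long chains, ranged from 387 to 416 CPM in EV and from 221 to 237 CPM with Sox4 (-0.82, SE 0.05, adjusted p = 2.78e-04). Ugcg, the glucosylceramide synthase (1.36, adjusted p = 0.00347), and Sgms1, a sphingomyelin synthase (1.10, adjusted p = 6.52e-04), rose. Sptlc1 rose by 0.48 (adjusted p = 0.0150), a call lost on leaving out replicate 1 (0.34) or 2 (0.47) of EV or replicate 2 of Sox4 (0.46).

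**Figure D4:**
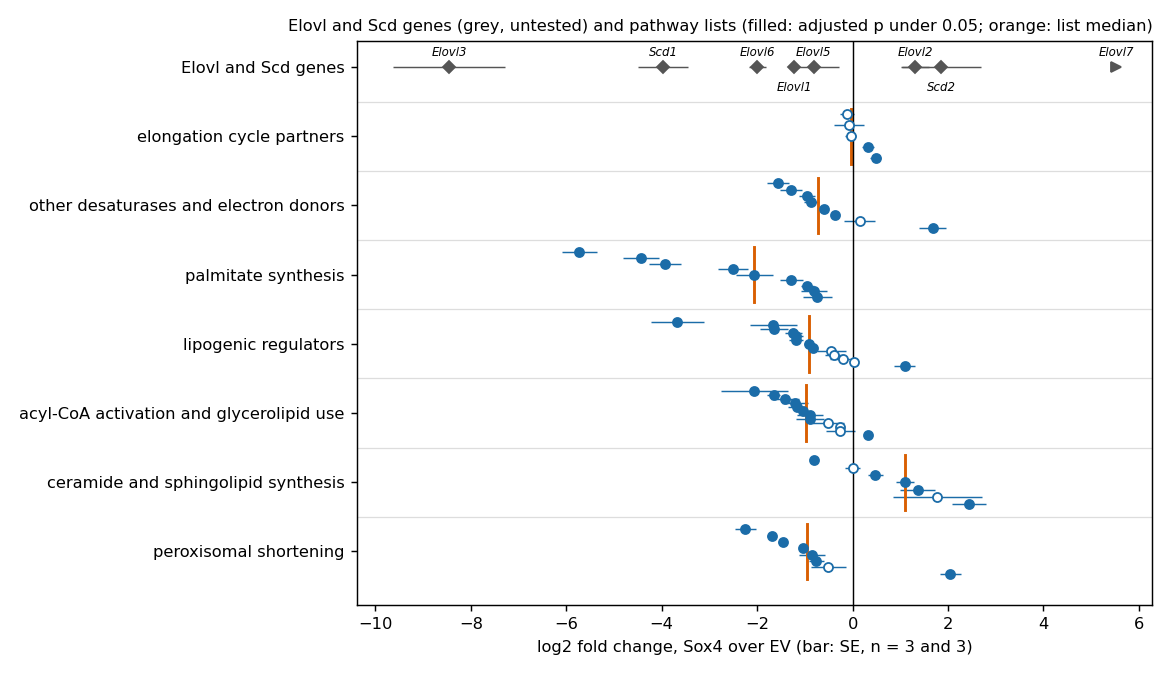
Log2 fold change of Sox4 over EV for the Elovl and Scd genes and for genes of 7 related lists, with SE bars (n = 3 and 3); filled circles passed the edgeR test, open circles did not, orange lines are list medians, grey diamonds are members with no test and the grey arrowhead is the lower bound for Elovl7. All 9 palmitate genes lie left of 0, elongation cycle partners lie near 0, and the sphingolipid list has a median of 1.10.

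The genes whose pattern over the 6 libraries was most like that of Elovl3 were Cyp8b1, a bile acid hydroxylase, at a Pearson r of 0.9997 for log2 CPM, Letmd1 (0.9993) and Shmt2 (0.9990), out of the 9024 tested genes whose counts averaged 100 or more. Cyp8b1 was at 741, 380 and 329 CPM in EV and 40.8, 29.6 and 13.2 CPM in Sox4 libraries, the same order as Elovl3 with a smaller difference (-4.12). For Scd1 they were Mpst (0.9996), Tmem37 (0.9992) and Mthfd1 (0.9991). The 6 libraries fall in 2 groups that differ in each of these genes, and points of 1 group share that difference.

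Markers of other cells were compared because a density gradient does not remove all of them. Cholangiocyte markers summed to between 10.02 and 21.9 CPM in EV and between 48.5 and 59.0 CPM with Sox4, with Epcam and Spp1 called higher of 3 tested, and Krt7 at 0 to 0.355 CPM. In the study, flow cytometry and staining also found EPCAM protein on hepatocyte-derived cells after delivery of Sox4. By the study, EPCAM staining became strong only later than day 4, the day of these libraries. Which cells the Epcam RNA came from was not tested. Of 6 Kupffer markers 2 were called higher (sums of 8.17 to 16.9 and 14.4 to 39.4 CPM), of 6 endothelial markers 2 higher and 1 lower (14.0 to 21.0 and 11.7 to 26.5 CPM), and of 3 tested stellate markers 2 higher (1.54 to 8.71 and 8.57 to 33.2 CPM). Adipocyte markers were read because fat cells are rich in Scd1 and Elovl3. Adipoq and Lep, which define fat cells, were at 0 in every library, while 1 of 2 tested markers was called higher with sums between 2.54 and 4.50 CPM in EV and between 4.51 and 17.5 CPM with Sox4. The part of these cells in the members' levels was not tested.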

How the data were processed

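RNA was sequenced from hepatocytes of EV and Sox4 mice (3 libraries each), and groups and replicate numbers were taken from the sample titles. The authors deposited raw counts per gene. The submitters' processing notes name STAR 2.7.10b, featureCounts 2.0.1, DESeq2 and the build GRCm39. The annotation release, strand setting and treatment of reads with several alignments are not given in the sources used here, so overlapping genes and near copies are uncertain. A second table, of the same counts after median-of-ratios scaling, was not used.

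The deposited counts were read into edgeR 4.0.16 (R 4.3.3). Genes were kept by filterByExpr (count of 10, total of 15), scaled by TMM and compared between Sox4 and EV with the robust quasi-likelihood F test, no covariate and Benjamini-Hochberg adjustment over all 12691 genes. Every adjusted p in the text is from that fit. Each SE belongs to the gap between the 2 groups' mean log2 CPM (prior count 2). A level of 3 counts per library was the floor for lower bounds, 0.150 to 0.231 CPM, and covers counting error only. Pairs of libraries within a group differed by a chi-square of 19.3 to 69.8 per degree of freedom, so none was a repeat of another. Gene lengths, shared 50-base words and overlaps came from GENCODE M21, on an older build than the counts, and lengths were exon unions. Scripts were tested on simulated counts. Alternatives used limma 3.58.1 and DESeq2 1.42.0.

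The members and lists were chosen with earlier results of these data known. Genes named were the members, Sox4, up to 6 called genes of each list with the largest change, some fixed genes of each pathway, and the 3 genes most like Elovl3 and Scd1 in pattern. Mbtps2, Dgat1, Hlf, Ciart and the other clock genes given for their spread in EV were named after their values were seen. Some members of the lists are counted in list totals and are not reported here by name.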

Additional observations from a re-analysis of the deposited data

How the results depend on the processing

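The members' values kept direction and side of the threshold in 101 of 104 alternative fits. The exceptions were Elovl5 without Sox4 replicate 3 and Scd2 without Sox4 replicate 1 or 2, so that 6 to 8 members were called when 1 library was left out. Over all genes named, 761 of 806 values kept both, 37 lost the call, 4 gained it and 6 turned in sign, with 1 of those lost and 1 of those gained among the 6. With library size alone, Clock (0.00081), Hsd17b12 (0.43) and Tecr (0.35) turned positive, and 8092 genes were called, 79.9% of them higher against 52.7% with TMM. Hsd17b12 was 0.0010 with no filter and 0.056 without Sox4 replicate 1, and Fads2 was -0.13 to 0.39 with 1 library left out, lowest without Sox4 replicate 3 and highest without Sox4 replicate 1, and 0.62 with library size alone.

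Of the list counts, elongation cycle partners called went from 2 to 1 with DESeq2, and were 0 to 2 when 1 library was left out. Clock genes went from 4 to 2 other genes (Per1, Hlf) with library size alone, and to 7 with DESeq2, with no filter and with the replicate block, and were 3 to 7 with 1 library left out. Female-biased genes went from 2 to 4 with limma-voom and to 1 with no filter, and were 1 to 3 with 1 library left out. The Scd1 share of the members in EV was 75.2% with the longest transcript as length, against 77.2%. The SD of Elovl3 over EV libraries was 0.395 to 1.52 with 1 of them left out, an alternative added after seeing the data, as was leaving libraries out for the shares. The causes of these shifts were not tested.

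Deviations of libraries with the same number had correlations of 0.273, -0.0898 and 0.131, which leaves a shared number and no pairing. With the replicate block 7362 genes and 7 members were called, 5 of the male-biased genes in place of 9, and 1 of the female-biased in place of 2. With 3 libraries a group, genes near the count floor (Elovl4, Elovl7 in EV, Scd2) are the least precise.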

Other observations

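Peroxisomes shorten very long chains, and the listed peroxisomal genes were mostly lower with Sox4. Of 8 listed, 6 fell, 1 rose and 1 was not called, with a median log2 fold change of -0.95 (edgeR test across all genes). Of all tested genes 26.0% were called lower and 29.0% higher. Abcd2, a transporter of the peroxisomal membrane and the 1 gene that rose, ranged from 16.5 to 23.9 CPM in EV and from 69.5 to 95.8 CPM with Sox4 (log2 fold change 2.05, SE 0.22, adjusted p = 1.51e-05). Scp2, which holds a peroxisomal thiolase and a lipid carrier, fell by 1.70 (adjusted p = 1.59e-05), and Acaa1a, a thiolase, fell by 1.05 (adjusted p = 5.54e-05).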
